A study of Mus musculus with 10 samples.

Results

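Of 36251 chromatin accessibility peaks outside Y in intestinal innate lymphoid cells, 1123 (3.1%) were open to a similar degree in 3 knockouts and less open in Control. A peak was chosen where the highest of the 3 Control values lay below the lowest of the 7 knockout values, the Control mean lay at least 1 below the mean of the 3 knockout group means on the log2 scale, and these 3 means spanned less than 0.8. The measured values themselves made this choice, so every difference from Control given here, and every difference among the knockouts, describes the chosen peaks and is no test of them. All 3 knockouts were set against the same 3 Control libraries.

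ATAC-seq, in which the Tn5 transposase places sequencing adapters into open DNA, was run on innate lymphoid cells sorted from the lamina propria of the small intestine of C57BL/6 mice. Every mouse carried Id2creERT2, a Cre recombinase driven from Id2 and activated by tamoxifen, and the fluorescent reporter tdRFP. RORgt-KO mice (n = 2 libraries) carried floxed alleles for RORgt, RORgt-Tbet-KO mice (n = 2) added Tbx21f/f, RORgt-RORa-KO mice (n = 3) added Roraf/f, and Control mice (n = 3) had no floxed allele. Tamoxifen was fed to the mice, per the labels, some weeks before the cells were sorted, and each library came from 1 mouse or from 2 or 3 pooled mice. Recombination follows Id2 in all cells that use it, and the sources used here do not give the sort markers, the batches or the floxed exons.

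Innate lymphoid cells are tissue lymphocytes without rearranged antigen receptors. RORgt is the nuclear receptor that defines group 3 cells, makers of interleukin-17 and interleukin-22. T-bet, encoded by Tbx21, directs the type 1 programme of interferon and cytotoxic granule genes, and RORa, encoded by Rora, is a relative of RORgt needed by group 2 cells and shared with group 3 cells. Group 3 cells of the gut can lose RORgt and take on a type 1 state. Open regions away from gene starts are often enhancers, short stretches that transcription factors bind.

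Few of the 1123 peaks lay at gene starts: 28 overlapped a RefSeq promoter window (250 bases before to 50 after a start, GRCm38.p6), 2.55% of the members on chromosomes with listed windows, against 25.3% of all peaks. The 28 peaks touched 31 windows, 20 of them of protein-coding genes. The upstream part of 4 windows that lies inside the peak is printed 5′ to 3′ on the gene's strand, because these are the opened gene starts of a natural killer receptor (Klrc3), a granule docking protein (Sytl3), a protease inhibitor of activated lymphocytes (Ctla2b) and a receptor signalling adaptor (Grb2, an alternative start inside the gene). Capitals mark matches, on either strand, to short motifs. They stand for RUNX in Klrc3, for GATA, ROR, RUNX and STAT in Sytl3, for AP-1 and NFAT in Ctla2b, and for the E-box and ETS in Grb2, with the letters given after the sequences.
Klrc3, chr6:129643289-129643372, minus strand: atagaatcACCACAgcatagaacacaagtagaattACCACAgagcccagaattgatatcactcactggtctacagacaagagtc
Sytl3, chr17:6658851-6659058, plus strand: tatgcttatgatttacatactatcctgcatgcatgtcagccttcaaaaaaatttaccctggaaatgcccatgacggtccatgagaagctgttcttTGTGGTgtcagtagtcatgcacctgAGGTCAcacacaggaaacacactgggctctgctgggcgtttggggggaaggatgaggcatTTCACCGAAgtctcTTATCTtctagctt
Ctla2b, chr13:60897448-60897697, minus strand: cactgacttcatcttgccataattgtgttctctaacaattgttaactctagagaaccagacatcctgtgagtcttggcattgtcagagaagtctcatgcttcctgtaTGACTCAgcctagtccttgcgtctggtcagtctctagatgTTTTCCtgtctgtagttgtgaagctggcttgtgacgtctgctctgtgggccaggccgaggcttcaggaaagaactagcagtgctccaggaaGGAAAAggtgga
Grb2, chr11:115699535-115699742, minus strand: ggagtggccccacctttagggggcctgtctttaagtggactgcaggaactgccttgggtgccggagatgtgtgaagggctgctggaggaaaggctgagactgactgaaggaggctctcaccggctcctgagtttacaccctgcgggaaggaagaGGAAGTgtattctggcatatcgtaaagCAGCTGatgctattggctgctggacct

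Over the full 300-base windows, the RUNX letters TGTGGT were found in 10 of the 31 windows (32.3%), against 12.6% of the 11690 windows that any peak overlapped and 16.8% of all 32851 windows. Windows under closed-alike peaks held them about as often, in 17 of 54 (31.5%). The ROR letters AGGTCA were in 8 (25.8%), against 11.4% and 16.3%. AP-1, searched as TGANTCA, was in 4 (12.9%), against 4.63% and 7.81%. ETS, as GGAAGT, was in 10 (32.3%), against 29.5% and 23.8%. KLF letters (GGGCGG) were in 10 windows (32.3%), against 67.1% of those under any peak, 35.7% of all windows and 38.9% of those under closed-alike peaks. The T-box letters (GGTGTGA) were in 1 window (3.23%), against 3.33%. These are counts of letters in 31 windows, with no test and no statement on binding. Of the other motifs searched on both strands, NFAT, searched as GGAAAA, was in 7 windows (22.6%), against 19.8% of those under any peak and 23.4% of all. In 4 windows each (12.9%) were GATA, searched as AGATAA (5.33% and 11.2%), TCF, searched as CTTTGA (11.3% and 16.0%), the E-box, searched as CAGCTG (14.2% and 16.3%), and STAT, searched as TTC and GAA with any 3 bases between (6.47% and 8.3%). IRF was in 3 (9.68%, against 2.95% and 3.44%) and NF-kB in 1 (3.23%, against 7.44% and 5.78%). In windows under closed-alike peaks the share was 14.8% for ROR, 7.41% for AP-1 and STAT, 18.5% for ETS and 1.85% for T-box. It was 29.6% for NFAT, 13.0% for GATA, TCF and the E-box, 3.7% for IRF and 20.4% for NF-kB. Some letters overlap between motifs, as in a TCF match that runs on from a ROR match.

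The 4 opened gene starts differed in depth. Ctla2b (peak chr13:60897240-60897952) had accessibility values, in log2 scaled reads, of 8.15 and 8.26 in RORgt-KO cells, 8.18 and 7.86 in RORgt-Tbet-KO cells, 8.29, 8.92 and 8.33 in RORgt-RORa-KO cells, and 6.64, 7.07 and 5.92 in Control cells. The fold was 3.16, 2.78 and 3.91 in the 3 knockouts in that order, and the Control libraries held 77, 104 and 38 reads. Sytl3 (chr17:6658851-6659100) had 6.01 and 6.24 in RORgt-KO cells, 6.80 and 6.78 in RORgt-Tbet-KO cells, 6.39, 6.40 and 6.37 in RORgt-RORa-KO cells, and 4.77, 5.73 and 5.32 in Control cells. It was highest where T-bet was also deleted, at 2.86-fold over Control. The Grb2 peak had 2.24, 3.44 and 2.90 times the Control level. Klrc3 rested on few reads, 7 to 29 in the knockout libraries and 3 to 5 in Control. Klrc3 and Ctla2b have near-identical relatives in the genome, and reads shared with them may be placed on either copy.

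The shallowest library was RORgt-RORa-KO replicate 2, with 2271585 reads in peaks, and the deepest was RORgt-Tbet-KO replicate 2, with 5047436. The median value of the 1123 peaks was 5.87 and 5.78 in RORgt-KO cells, 6.04 and 6.03 in RORgt-Tbet-KO cells, 6.01, 6.18 and 6.13 in RORgt-RORa-KO cells, and 4.37, 4.62 and 4.76 in Control cells. In the knockouts the chosen peaks were thus about as open as the typical peak, whose library medians lay between 5.90 and 6.03. They held 2.15% to 2.79% of all reads in the knockout libraries and 0.886% to 1.08% in Control. Control replicate 3 stood nearest to the knockouts and held the highest Control value in 524 of the 1123 peaks, against 360 for replicate 2 and 239 for replicate 1. RORgt-KO replicate 2 held the lowest knockout value in 377. The share of reads near gene ends, a measure of library quality, was 46.0% to 50.9% in the knockouts and 47.5% to 49.7% in Control. In bulk chromatin, a larger share of cells with an open region and wider opening in each cell cannot be told apart.

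**Figure D1:**
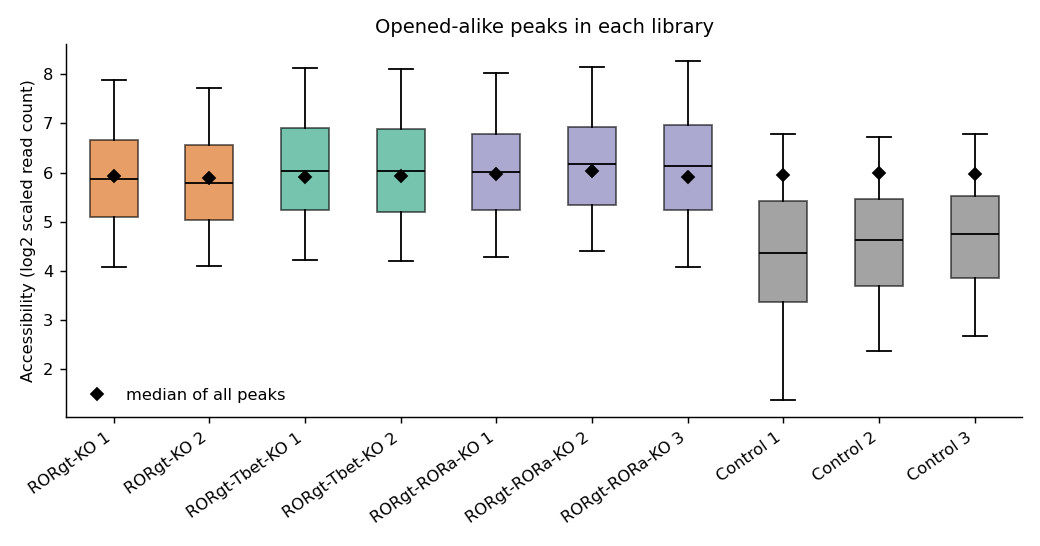
Accessibility (log2 scaled read count) of the 1123 opened-alike peaks in each of the 10 libraries. Boxes span the quartiles with the median as a line, whiskers run over the 5th to 95th percentile and diamonds give the median of all peaks, from which the chosen peaks differ by -0.12 to 0.22 in the knockouts and by -1.59 to -1.20 in Control.

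The gap, meaning the mean of the 3 knockout group means minus the Control mean, had a median of 1.37 and ran up to 3.40. It was under 1.5 in 692 peaks and at least 2 in 150. The median difference from Control was 1.22 for RORgt-KO, 1.46 for RORgt-Tbet-KO and 1.48 in RORgt-RORa-KO, where the median of all peaks was 0.02, 0.01 and 0.02. The median standard error of a peak's difference was 0.34, 0.34 and 0.30. A difference of at least 2-fold in each of the 3 knockouts was seen in 740 peaks. RORgt-RORa-KO had the highest group mean in 530 peaks, RORgt-Tbet-KO in 493 and RORgt-KO in 100. RORgt-KO had the lowest in 714.

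In limma's moderated test over all peaks (adjusted p under 0.05), 824 of the 1123 were called higher in RORgt-KO, where 5.19% of all peaks were. The count was 993 in RORgt-Tbet-KO (11.3% of all peaks) and 1091 in RORgt-RORa-KO (15.1%), and 788 were called in all 3 (3.54% of all peaks). None was called lower, and 18 were called in no knockout. The rule used these contrasts, so the counts describe the chosen peaks and are no test of them. They depend on the size of the differences and the number of libraries as well as on scatter. Leaving out 1 library of a pair left 302 (without RORgt-KO replicate 1) or 437 (without replicate 2) called in RORgt-KO, and 618 or 628 in RORgt-Tbet-KO, with the lone library taken to vary like the other groups. No filter on low values was applied: 294 members averaged under 10 Control reads, and 26 had 0 reads in a Control library, 23 of them in Control replicate 1.

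The limits of the rule cut through a continuum. The last peaks inside the gap limit were near Bmerb1, Rcan3 and Capzb (gaps 1.0000 to 1.0006), and the first outside were near Kdm5a, Csnk1g2 and Wwox (0.9992 to 0.9997). At the span limit, Lypd6b, Dnaaf5 and Sh3bp4 were inside (0.7992 to 0.7998), and Arrdc4, Uvrag and Tnfsf18 were outside (0.8023 to 0.8043). All 7 knockout values lay above all 3 Control values in 3211 peaks (8.86%). Of these, 1574 had a gap of at least 1, and 451 of them spanned 0.8 or more among the knockouts.

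Each of the 10 libraries was left out in turn, peaks were chosen with the other 9, and the left-out value was then placed. The left-out library was set against libraries whose values had chosen the peaks, which by itself raises its share, and the shares over all peaks were not chosen in this way. The shares are therefore a description and not an independent reading, and they concern sets that overlap the 1123 peaks without being the same (899 to 1043 shared). RORgt-KO replicates 1 and 2 lay above every Control library in 94.3% of 1032 and 87.1% of 1310 chosen peaks. The other knockout libraries did so in 95.3% to 97.6%, while 29.7% to 35.2% of all peaks had the left-out knockout library above Control. Control replicates 1, 2 and 3 lay below every knockout library in 91.3% of 1105, 85.2% of 1330 and 71.5% of 1641 peaks, against 24.2%, 23.3% and 19.2% of all peaks. Control replicate 3 was the library least often on its group's side. In the 1641 peaks chosen without it, the knockouts exceeded it by a median of 0.90, against 1.04 to 1.53 for the other left-out libraries.

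**Figure D2:**
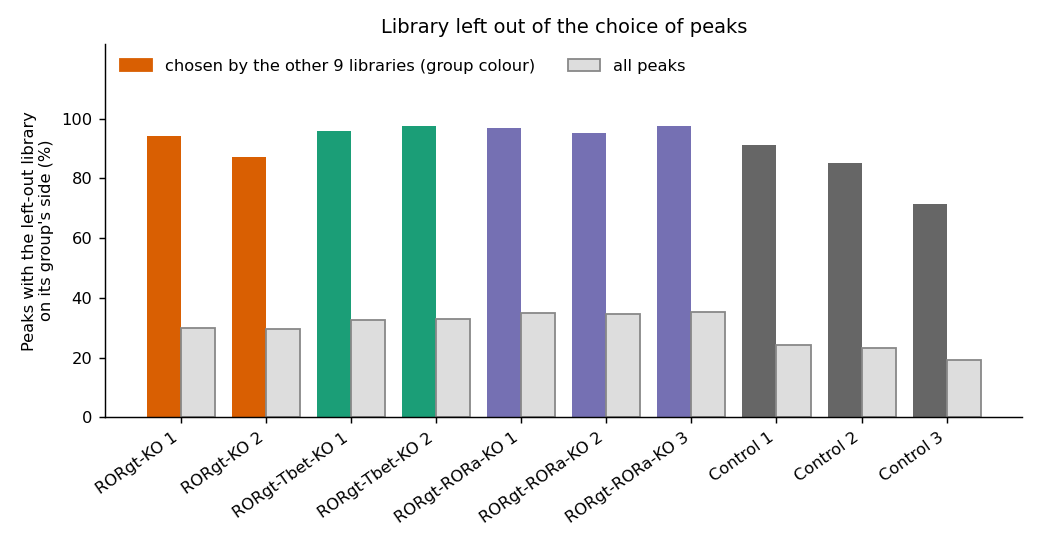
Share of peaks (%) in which a library kept out of the choice fell on its own group's side, for peaks chosen by the other 9 libraries (coloured) and for all peaks (light grey). Knockout libraries did so in 87.1% to 97.6% of the chosen peaks and Control libraries in 71.5% to 91.3%, set against libraries that had chosen the peaks, so the coloured and grey bars are not like for like.

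Most members lay inside genes or between them. Of the 1123 peaks, 649 (57.8%) were inside a gene and more than 1 kb from its ends, against 39.0% of all peaks, and 81 (7.21%) were within 1 kb of a gene end, against 29.9%. Another 292 lay between genes within 50 kb of one, against 20.9%, and the rest (8.99%) lay farther out, against 10.2%. The 1482 peaks that closed alike, chosen by the mirrored rule, shared the low share at gene ends but had 47.2% inside genes and 21.3% beyond 50 kb. Whether a peak inside a gene is exonic or intronic is not in the annotation used here. The members were short, with a median length of 411 bp against 480 bp for all peaks, while closed-alike peaks had 385 bp and the 451 peaks opened unequally 403 bp. By chromosome their share ran from 10 of 940 peaks (1.06%) on X to 90 of 2147 (4.19%) on chromosome 7, and on X 4.47% of peaks closed alike. No test was made of these shares.

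**Figure D3:**
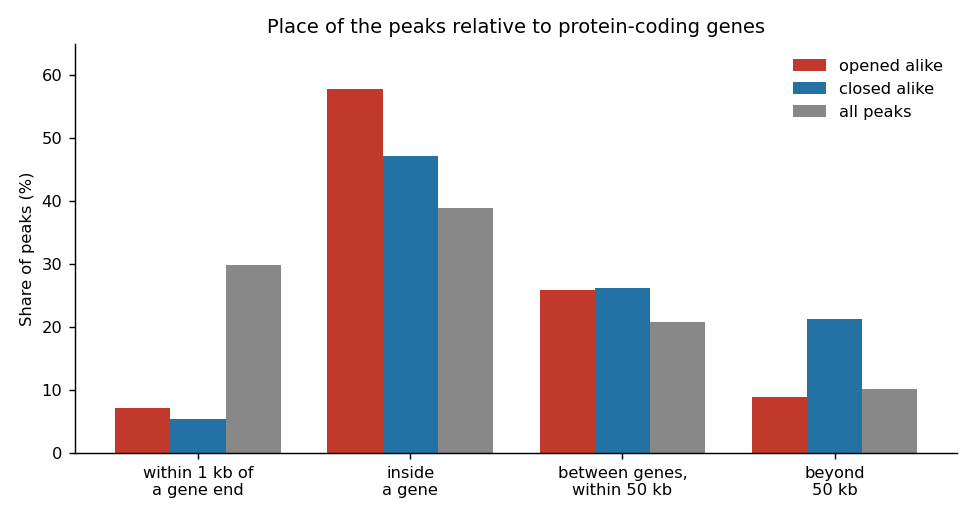
Share of peaks (%) by place relative to protein-coding genes, for the 1123 opened-alike peaks, the 1482 closed-alike peaks and all 36251 peaks. Opened-alike peaks were inside genes in 57.8% and within 1 kb of a gene end in 7.21%.

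Another member lay within 10 kb of 137 members (12.2%), within 50 kb of 341 (30.4%) and within 100 kb of 436 (38.8%), where closed-alike peaks had 9.31%, 25.3% and 37.2%. The median distance to the next of the same kind was 205049 bp for members and 194233 bp for closed-alike peaks. For 1045 members the nearest peak outside the set was within 50 kb, at a median distance of 6899 bp. These neighbours had a median gap of 0.28, and 72.6% of them were above 0, against 49.9% of all peaks outside the set. Of the genes with a member, 505 also had a promoter peak, which in some genes was itself a member. Members were chosen for a gap of at least 1 and promoter peaks were not, so their gaps are not like for like. With 1 median value per gene, the median promoter gap was 0.08, and 18 genes had 1 or more. In 87.9% of the 505 genes it lay within 0.5 of no difference. Among all 8102 genes with a promoter peak the median was 0.02 and the share 90.4%. Members were assigned to 845 of the 13141 genes with a peak, and 139 genes had 2 or more. Of the 845 genes, 90 also had a peak that closed alike, where 960 of all 13141 genes had one. The number of peaks per gene was not taken into account.

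The members with the largest gaps were nearly empty in Control. The widest was 46021 bp from Rasgrf1, an exchange factor that activates Ras (chr9:89863123-89863487), with 5.19 and 5.04 in RORgt-KO cells, 5.40 and 5.33 in RORgt-Tbet-KO cells, 5.81, 5.77 and 5.13 in RORgt-RORa-KO cells, and 0.22, 3.37 and 2.26 in Control cells. In reads this was 21 to 48 in the knockout libraries and 0, 8 and 3 in Control, so the 8.98- to 12.3-fold differences lean on the value that empty peaks hold. All 3 peaks assigned to Rasgrf1 were members, over 110.0 kb. The others in order were inside Slc39a6, a zinc transporter (gap 3.36), near Larp1, an RNA-binding regulator of translation (3.31), in Cenps, a centromere and DNA repair protein (3.25), at Rmnd1, a mitochondrial translation factor (3.17), in Jpt2 (3.16), in Tnrc6c, a microRNA silencing protein (3.14), and in Cuedc1 (3.11).

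Rmnd1 was the best covered of these 8. Its peak, chr10:4429191-4429541, which a second gene overlaps, had 5.61 and 6.08 in RORgt-KO cells, 6.61 and 6.50 in RORgt-Tbet-KO cells, 6.42, 6.77 and 6.61 in RORgt-RORa-KO cells, and 2.69, 2.96 and 3.85 in Control cells. Its difference was 2.68 (SE 0.35), 3.39 (SE 0.35) and 3.43 (SE 0.31). The lowest knockout library thus had 40 reads and the highest Control library 9.

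By the mean of the 3 knockout group means, the most open member was inside Rcsd1, which encodes a protein that binds the actin capping complex (chr1:165679916-165680570). It had 9.73 and 9.74 in RORgt-KO cells, 10.37 and 10.50 in RORgt-Tbet-KO cells, 9.94, 9.64 and 9.97 in RORgt-RORa-KO cells, and 7.33, 6.88 and 7.03 in Control cells. That is 6.30-, 10.3- and 6.83-fold, from 454 to 1733 reads in the knockout libraries against 82 to 124 in Control. Other highly open members at named genes were peaks near Ifngr2, the second chain of the interferon gamma receptor (9.23 to 10.05 in the knockouts against 8.52 to 8.80 in Control), near Smndc1, a splicing factor (8.92 to 9.71 against 7.95 to 8.13), and in Sh3bp4, an endocytosis protein (8.48 to 9.75 against a Control mean of 8.15). The gap of these 3 was between 1.06 and 1.20, against 2.93 at Rcsd1.

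Peaks with the most similar knockout means, among those with at least 50 reads on average, included those in Nav2, near Atp11b, in Nfatc1 and in Cdyl2, with spans of 0.06 to 0.09. The Nfatc1 peak (chr18:80691552-80692106) had 6.73 and 6.88 in RORgt-KO cells, 6.87 and 6.88 in RORgt-Tbet-KO cells, 6.91, 6.55 and 7.22 in RORgt-RORa-KO cells, and 5.42, 6.18 and 5.32 in Control cells. Its folds were 2.24, 2.36 and 2.38. The Nav2 peak had a smaller span of group means still, but its RORgt-RORa-KO libraries ran from 5.01 to 6.95, so near-equal means did not come with near-equal libraries.

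**Figure D4:**
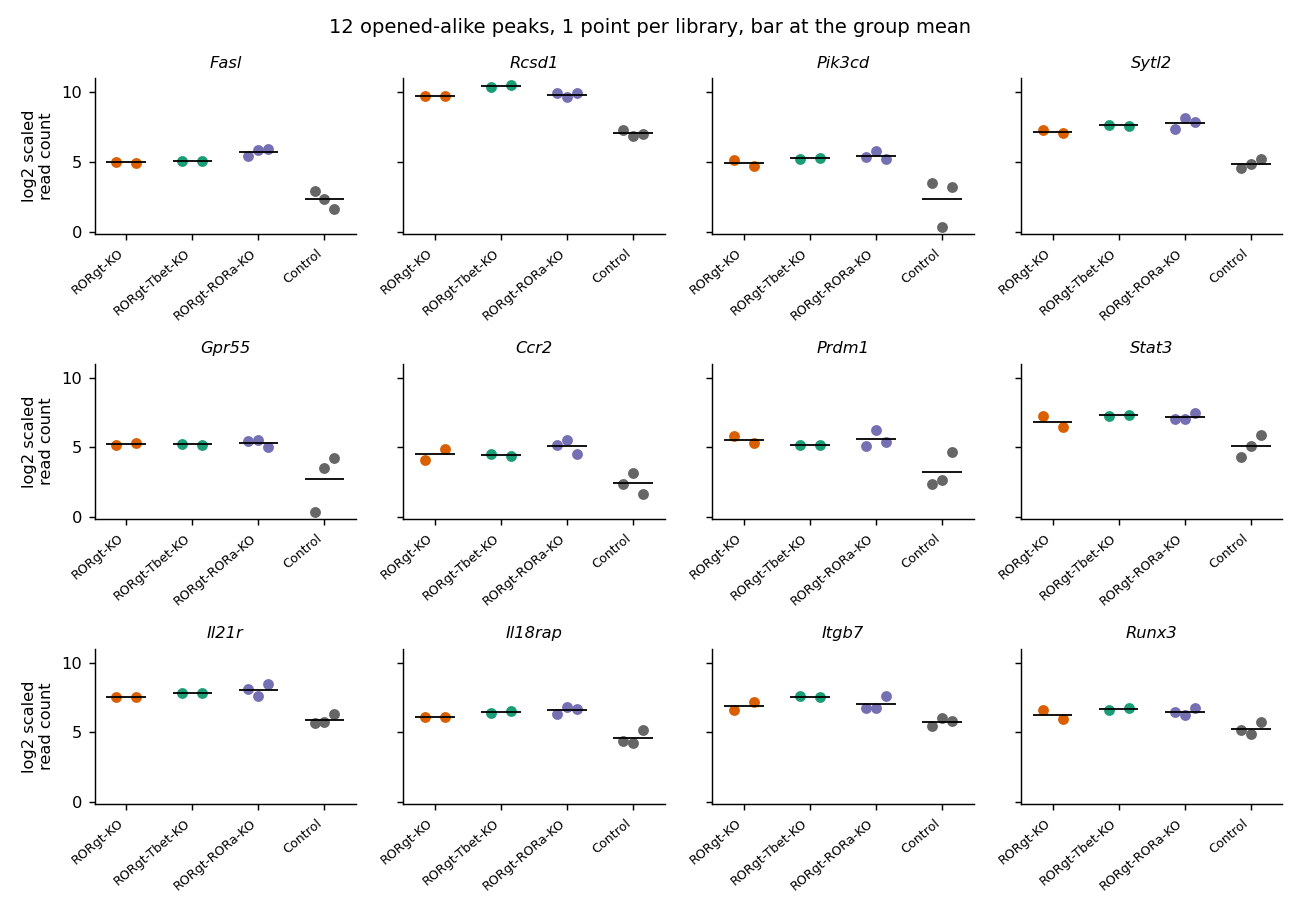
Accessibility (log2 scaled read count) of 12 opened-alike peaks in every library, with points for libraries and bars at group means, with the knockouts left of Control. The 7 knockout points lie above the 3 Control points in each panel, as the rule requires, and the Control points scatter most at Gpr55 and Pik3cd.

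Type 1 and natural killer genes were examined because T-bet drives them and the peaks opened with or without it. Of 135 peaks of 33 such genes, 7 (5.19%, against 3.1% of all peaks) were members, at Fasl, Il18rap, Serpinb9, Stat4 and Ccl5. Here and in the lists below, the place of the peaks relative to genes was not taken into account. The median gap of the 135 peaks was 0.41, against 0.02 for all peaks. Limma called 30 of them higher and 5 lower in RORgt-KO, 34 higher and 12 lower with T-bet deleted too, and 66 higher and 11 lower in RORgt-RORa-KO. Over all peaks 5.19%, 11.3% and 15.1% were higher and 7.12%, 11.3% and 16.1% lower.

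Fasl encodes the death ligand of cytotoxic lymphocytes. The member 1248 bp from it (chr1:161779185-161779443) had 5.04 and 4.97 in RORgt-KO cells, 5.08 and 5.07 in RORgt-Tbet-KO cells, 5.44, 5.91 and 5.93 in RORgt-RORa-KO cells, and 2.96, 2.37 and 1.68 in Control cells. The folds were 6.37, 6.68 and 10.7, and the Control libraries had 2 to 6 reads. Fasl had 3 members among 9 peaks over 43.3 kb, and the other 6 peaks also had gaps above 0, of 0.38 to 1.24.

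Il18rap, the second chain of the interleukin-18 receptor, had a member inside the gene (chr1:40524012-40524659). Values were 6.14 and 6.11 in RORgt-KO cells, 6.40 and 6.53 in RORgt-Tbet-KO cells, 6.32, 6.84 and 6.65 in RORgt-RORa-KO cells, and 4.37, 4.28 and 5.20 in Control cells. The folds were 2.85, 3.60 and 3.96. Peaks at Serpinb9, an inhibitor of granzyme B (2.03-, 2.80- and 2.29-fold), near Ccl5, a chemokine (2.04-, 2.13- and 2.62-fold), and in Stat4, which relays interleukin-12 signals (1.76-, 2.25- and 2.59-fold), were less raised.

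Genes for the release of secretory lysosomes, which include cytotoxic granules, were listed after the members' names were seen. Listing genes in this way can by itself raise the share, here and in the further such lists below. This list held 9 members among 50 peaks (18.0%) of 14 genes, against 3.1% of all peaks. All 9 were at Rab27a, Rab27b, Sytl2 and Sytl3, the Rab27 GTPases and their synaptotagmin-like effectors. The Sytl2 member (chr7:90355421-90355906) had 7.28 and 7.09 in RORgt-KO cells, 7.70 and 7.57 in RORgt-Tbet-KO cells, 7.37, 8.14 and 7.90 in RORgt-RORa-KO cells, and 4.62, 4.90 and 5.20 in Control cells. Its difference was 2.28 (SE 0.24), 2.73 (SE 0.24) and 2.90 (SE 0.22), from 19 to 23 Control reads. Sytl2 had 2 more members inside the gene, with gaps of 1.42 and 1.04. Rab27b had 3 (gaps 2.71, 1.48 and 1.35), Rab27a had 2 (1.68 and 1.11), and Sytl3 had the gene start shown above.

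Cytokine receptor chains, also listed after names were seen, held 18 members among 159 peaks (11.3%), against 3.1% of all peaks. The members were spread over 12 of 35 genes, and the list's median gap was 0.43. Limma called 32, 54 and 64 of the 159 higher and 6, 5 and 16 lower across RORgt-KO, then RORgt-Tbet-KO, then RORgt-RORa-KO. Over all peaks, 5.19%, 11.3% and 15.1% were called higher and 7.12%, 11.3% and 16.1% lower in the same order. The Il21r member (chr7:125607361-125608222), in the receptor for interleukin-21, had 7.57 and 7.58 in RORgt-KO cells, 7.81 and 7.83 in RORgt-Tbet-KO cells, 8.09, 7.61 and 8.48 in RORgt-RORa-KO cells, and 5.66, 5.76 and 6.35 in Control cells. It was 3.14-, 3.73- and 4.40-fold over Control.

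Several receptor members sat in neighbouring genes. Il21r had a second member, and 1 lay by its neighbour Il4ra, the interleukin-4 receptor chain. In the 19.6 kb of chromosome 7 from the Il4ra member to the farther Il21r member, 3 of the 4 peaks were members. The remaining one had a gap of 1.98. Members set the edges of this stretch, which raises its share. Of all peaks assigned to each gene, Il21r had 2 members among 5 and Il4ra 1 among 5. On chromosome 16, 93.4 kb at Ifnar1 and Ifngr2, receptor chains for type I interferons and interferon gamma, held 5 members among 11 peaks, and all 6 other peaks had gaps above 0 (0.20 to 1.46). On chromosome 1, Il1r1, Il1rl2 and Il18rap, receptors of the interleukin-1 family, had 1 member each in 209.0 kb. Of the 16 other peaks there, 15 had gaps above 0. The stretches on chromosomes 16 and 1 also end at a member.

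Some receptors that group 3 cells use had 1 peak opened alike among several that were not. The member in Il23r, the interleukin-23 receptor (chr6:67459380-67459797), had 7.01 and 7.14 in RORgt-KO cells, 7.49 and 7.43 in RORgt-Tbet-KO cells, 6.48, 7.42 and 7.09 in RORgt-RORa-KO cells, and 6.15, 5.23 and 6.07 in Control cells. The folds were 2.40, 3.12 and 2.27, and RORgt-RORa-KO replicate 1 was the knockout library nearest to Control. It was 1 of 10 Il23r peaks, of which another closed alike, and the Il23r promoter peak had a gap of -0.48. Il1r1 had 1 member of 14 peaks, at a gene end (1.75-, 2.81- and 1.96-fold), while another peak closed alike and its promoter peak had a gap of -0.05. Il2ra, the high-affinity interleukin-2 receptor chain, had 1 of 9, at 19283 bp (2.56-, 3.78- and 2.59-fold). Type 3 genes as a list had 4 members among 87 peaks (4.60%) and 7 that closed alike, with a median gap of 0.02. LTi-like genes had 1 of 65 (1.54%), and type 2 genes had 0 of 30. Over all peaks 3.1% were members and 4.09% closed alike.

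TNF family receptors and ligands, listed after names were seen, had a median gap of 0.32. Against 3.1% of all peaks, 8 of their 102 peaks (7.84%) were members. Besides Fasl these were near Tnfrsf14, the receptor HVEM, whose member 7011 bp away was 4.73-, 7.37- and 6.41-fold over Control, near Tnfrsf9, the costimulator 4-1BB (2.24-, 2.65- and 2.56-fold), near Tnfrsf18, or GITR (1.81-, 2.11- and 2.16-fold), and in Tnfrsf22, a mouse decoy receptor (3.29-, 4.40- and 5.44-fold). All lay more than 1 kb from a gene end.

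The pathway from calcium entry to NFAT was a further list drawn up after names were seen. It had 15 members among 168 peaks (8.93%), against 3.1% of all peaks. These members were spread over 12 of its 23 genes with a peak. Its median gap was 0.14, against 0.02 for all peaks, and 7 of its peaks closed alike, where 4.09% of all peaks did. Members lay in Plcg2, the phospholipase upstream of calcium release (3.47-, 2.78- and 3.20-fold), in Itpr1 and Itpr2, the release channels, in Stim1 and Stim2, the store sensors, in Orai1, the entry channel, in Ppp3ca and Ppp3cc, catalytic subunits of calcineurin, in Nfatc1, and in or near the calcineurin regulators Rcan1 and Rcan3.

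Camk4, a calmodulin-dependent kinase, had the widest gap of the pathway at 2.52 (chr18:32958020-32958603). It had 7.03 and 6.61 in RORgt-KO cells, 7.28 and 7.10 in RORgt-Tbet-KO cells, 7.05, 7.03 and 7.40 in RORgt-RORa-KO cells, and 3.83, 5.28 and 4.48 in Control cells. Stim1 (chr7:102313192-102313767) had 6.19 and 5.65 in RORgt-KO cells, 6.02 and 6.20 in RORgt-Tbet-KO cells, 6.53, 6.37 and 6.84 in RORgt-RORa-KO cells, and 4.46, 3.83 and 4.38 in Control cells. Their folds were 4.87, 6.32 and 6.19 for Camk4 and 3.25, 3.71 and 5.13 for Stim1. Ppp3cc had 3 members, with gaps of 1.03 to 1.36.

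Among transcription factor genes of innate lymphoid cells, 13 of 263 peaks (4.94%, against 3.1% of all peaks) were members, in 9 of 28 genes. Another 9 of the 263 closed alike, where 4.09% of all peaks did. The median gap of the 263 was 0.15. Prdm1 encodes Blimp-1, a repressor in effector lymphocytes, and had a member 3994 bp away (chr10:44532552-44532801). Its values were 5.81 and 5.29 in RORgt-KO cells, 5.20 and 5.14 in RORgt-Tbet-KO cells, 5.07, 6.28 and 5.40 in RORgt-RORa-KO cells, and 2.37, 2.69 and 4.68 in Control cells. Control replicate 3 stood apart here, just below the lowest knockout library, while the other Control libraries were far lower.

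Stat3, which relays interleukin-23 and interleukin-6 family signals, showed the same order of the Control libraries. Its member (chr11:100933821-100934465) had 7.24 and 6.46 in RORgt-KO cells, 7.27 and 7.31 in RORgt-Tbet-KO cells, 7.04, 7.03 and 7.45 in RORgt-RORa-KO cells, and 4.28, 5.07 and 5.89 in Control cells. The differences were 1.77 (SE 0.32), 2.21 (SE 0.32) and 2.09 (SE 0.28). Foxo1, a factor of lymphocyte survival and homing, had one at 3.71-, 5.82- and 4.06-fold.

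Zbtb16 encodes PLZF, a factor of innate lymphocyte precursors, and had 3 members inside the gene within a short stretch. The one at chr9:48806481-48807073 had 7.67 and 7.71 in RORgt-KO cells, 8.57 and 8.36 in RORgt-Tbet-KO cells, 7.85, 7.75 and 8.30 in RORgt-RORa-KO cells, and 6.86, 6.52 and 6.87 in Control cells. RORgt-Tbet-KO was the highest group there, at 3.28-fold, against 1.91-fold in RORgt-KO and 2.32-fold in RORgt-RORa-KO. Runx1 and Runx3 each had 1 member, at 2.85-, 3.68- and 2.96-fold in Runx1 and with a gap of 1.20 near Runx3. Id2, which drives the Cre, had 2 members 12805 and 47413 bp away, with gaps of 1.25 and 1.01. The nearer one held 17 to 28 reads in the knockout libraries and 5 to 10 in Control. Limma called it higher in RORgt-RORa-KO only. Neither of the floxed genes Tbx21 and Rora had a member among their 2 and 14 peaks.

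Genes of homing and residency had 5 members among 60 peaks (8.33%, against 3.1% of all peaks) and a median gap of 0.25. Gpr55, a lipid receptor of intestinal lymphocytes, had 3. The strongest (chr1:85936882-85937154) had 5.19 and 5.29 in RORgt-KO cells, 5.27 and 5.17 in RORgt-Tbet-KO cells, 5.44, 5.52 and 5.01 in RORgt-RORa-KO cells, and 0.37, 3.54 and 4.26 in Control cells. The knockout libraries differed by little while Control had 1, 9 and 12 reads. Ccr2, a chemokine receptor, had a member 33083 bp away (4.25-, 4.09- and 6.29-fold, from 2 to 7 Control reads), and Rgs1, which dampens chemokine receptor signals, one at 29044 bp.

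Proximal signalling genes had 7 members among 152 peaks (4.61%, against 3.1% of all peaks), with a median gap of 0.30. The peak in Pik3cd, the leukocyte PI3 kinase (chr4:149680696-149680988), had 5.14 and 4.74 in RORgt-KO cells, 5.23 and 5.33 in RORgt-Tbet-KO cells, 5.39, 5.77 and 5.24 in RORgt-RORa-KO cells, and 3.54, 0.37 and 3.26 in Control cells. Control replicate 2 held 1 read, so the gap of 2.84 leans on that library. JAK-STAT and SOCS genes had 4 of 70 (5.71%, against the same 3.1%). Among them was Socs3, the feedback inhibitor of Stat3, at the gene end (1.94-, 2.80- and 2.42-fold).

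Of the surface genes shared by innate lymphoid cells, 2 of 53 peaks (3.77%) were members. Itgb7 encodes the integrin chain that holds lymphocytes in the gut, and its member (chr15:102230730-102231351) had 6.59 and 7.16 in RORgt-KO cells, 7.61 and 7.52 in RORgt-Tbet-KO cells, 6.79, 6.73 and 7.64 in RORgt-RORa-KO cells, and 5.50, 6.04 and 5.81 in Control cells. Cd7 had the other, at 2.73-, 3.12- and 3.14-fold. TGF-beta and SMAD genes had 2 of 68 (2.94%, both near Tgfbr2), clock genes 2 of 48 (4.17%, in Npas2 and Per3), immediate early genes 1 of 73 (1.37%, near Egr1) and housekeeping genes 0 of 31. Over all peaks the share was 3.1%.

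Some genes gathered members. Vgll4, a cofactor of TEAD factors, had 5 among its 13 peaks within 21.5 kb, and its 8 other peaks all had gaps above 0. Bcl2, the survival factor, had 4 of 22 within 34.5 kb inside the gene, with gaps of 1.02 to 1.24, beside other peaks as low as -2.08. Igf1r, the growth factor receptor, had 4 of 18 spread over 237.0 kb, Rere 4 of 17 and P4ha2, a collagen prolyl hydroxylase, 4 of 13, each with a non-member peak at or below -1.26. Ppp2r5a, a regulatory subunit of phosphatase 2A, had 4 of 8 peaks, all on one flank 19475 to 48864 bp away, while its 4 other peaks stayed between -0.26 and 0.34. The strongest Ppp2r5a member (chr1:191445905-191446377) had 6.53 and 6.65 in RORgt-KO cells, 7.01 and 6.94 in RORgt-Tbet-KO cells, 6.69, 6.88 and 6.90 in RORgt-RORa-KO cells, and 4.62, 5.18 and 5.07 in Control cells.

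**Figure D5:**
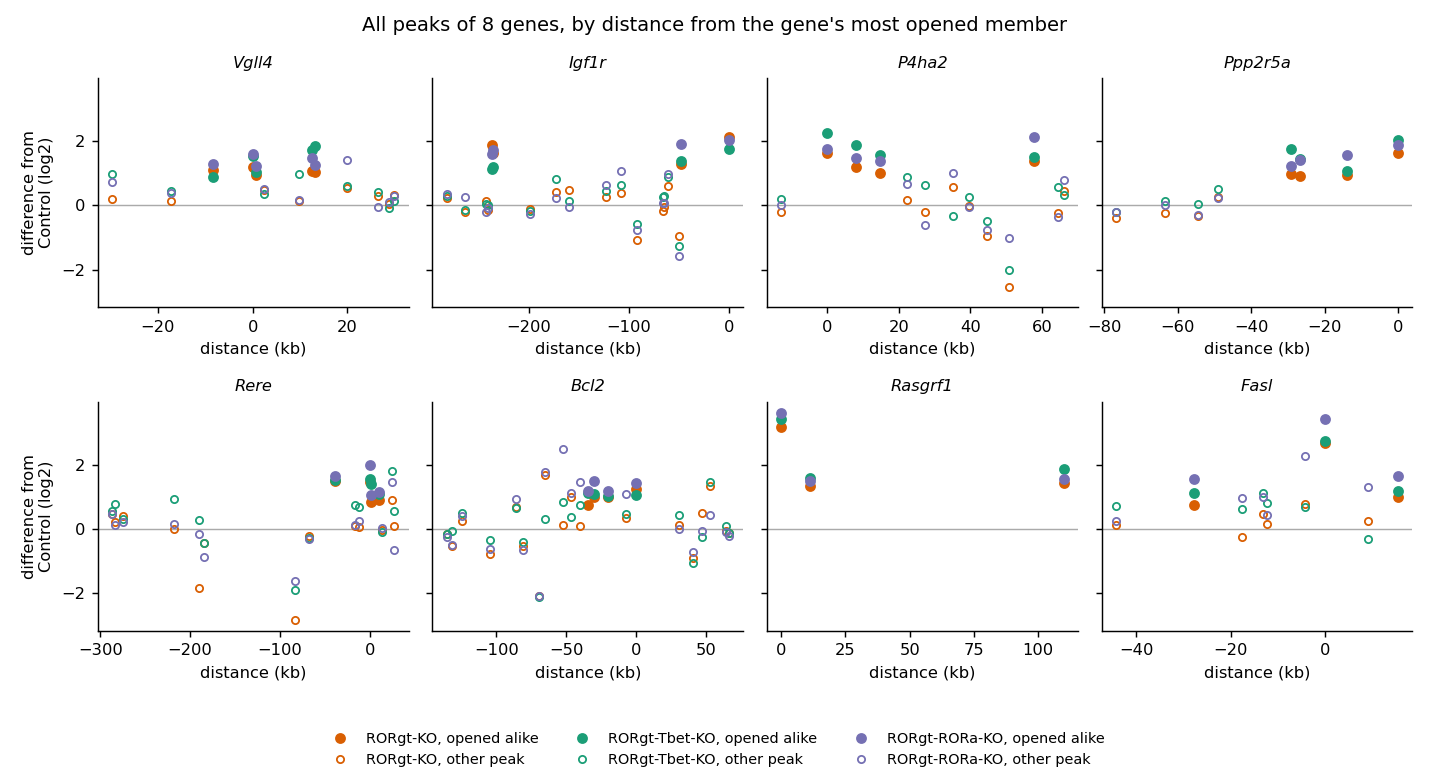
Difference of each knockout from Control (log2) at every peak of 8 genes with several members, by distance (kb) from the gene's most opened member. Filled points are opened-alike peaks and open points the gene's other peaks. At Vgll4 and Fasl the other peaks lean upward, while Igf1r, P4ha2, Rere and Bcl2 hold peaks that were lower in all 3 knockouts.

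Marker peaks of other cells were summed in each library, scaled to 1000000 reads per library, over peaks in these genes or within 1 kb of them. Innate lymphoid cell markers (21 peaks, all 7 genes) had 1013 to 1268 in the knockouts and 1092 to 1115 in Control. T cell markers (5 peaks, 4 of 8 genes) had 67.7 to 74.1 in RORgt-KO, 77.3 to 96.7 in RORgt-Tbet-KO, 108 to 118 in RORgt-RORa-KO and 56.8 to 71.5 in Control. B cell markers (11 peaks, 3 of 7 genes) were lower in the knockouts, at 133 to 195 against 238 to 267. Myeloid markers (3 peaks) had 68.8 to 78.7 against 50.6 to 65.8, epithelial markers (3 peaks) 29.9 to 41.6 against 22.8 to 34.2, and stromal and endothelial markers (8 peaks) 117 to 165 against 81.0 to 104. Some markers had no peak in the gene or within 1 kb of it. These included Cd3g, Cd6, Cd8a and Themis of T cells, and Cd79a, Cd79b and Ms4a1 of B cells. They also included Csf1r, Itgam and Lyz2 of myeloid cells, and Krt8, Krt19 and Vil1 of epithelium. In stroma and endothelium they included Col1a1, Col1a2, Cdh5 and Kdr. Within 50 kb of marker genes, T, B and myeloid lists had no member, innate lymphoid cell genes 2 (both Id2), epithelial genes 1 (Epcam) and stromal and endothelial genes 1 (Pecam1). The part of such cells in the opened peaks was not tested.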

How the data were processed

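ATAC-seq was measured in 10 libraries. Per the submitters' processing notes, the authors used Trim Galore 0.62, Bowtie2 2.3.5.1, SAMtools and MACS2 with GRCm38. The deposited table holds a log2 scaled read count for each of 36262 peaks, and the 11 on Y were left out. The number 2 raised to each value gave a whole multiple of 1 step per library (tolerance 0.01), and dividing by it gave the reads. Empty peaks hold 0.9 of a step.

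The rule was applied to the deposited values. Differences were fitted with limma 3.58.1 in R 4.3.3 over all 36251 peaks and 4 groups with a mean-variance trend (6 residual and 22.5 prior degrees of freedom), tested on simulated data and adjusted by Benjamini-Hochberg at 0.05. A peak carries the name of the closest coding gene if its body is within 50 kb, which says nothing of what it regulates. The RefSeq promoter table lists starts for 17491 of 21896 coding genes. No genome was used here, so sequence was read in promoter windows only. Coordinates are printed as in the deposited table, which does not say whether they count from 0 or 1.

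The members and all gene lists were chosen with earlier results of these data known, and 4 lists after members' names were seen. Named genes were the 8 widest gaps, the 5 most open, the 5 most alike with at least 50 reads, the 8 with most members, up to 3 per list and the limits; others were chosen after their values were seen. Predicted genes and some peaks that the rule names are not reported here. Alternatives covered scaling, pseudocount, filters, the rule's limits, voom, weights, a replicate block and leaving out each library. Figures were drawn with matplotlib 3.10.9.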

Additional observations from a re-analysis of the deposited data

How the results depend on the processing

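The count of 1123 moved to 431 at a gap of 1.5, 2377 at 0.5 and 404 at a span under 0.4. Other scalings, 0.5 added reads, no span limit and no condition on single libraries gave 1177 to 1574 peaks, and leaving out the peaks with the lowest mean values gave 895. Leaving out each library gave 1032 to 1641 peaks, 899 to 1043 of them shared with the 1123. Members called higher ranged over left-out libraries from 302 to 846 in RORgt-KO, 618 to 997 in RORgt-Tbet-KO and 988 to 1077 in RORgt-RORa-KO. Their median differences ranged from 1.144 to 1.302, 1.388 to 1.531 and 1.396 to 1.558. Within 2 kb of a gene end lay 11.6%, against 7.21% within 1 kb.

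Without the trend, 597, 902 and 1073 members were called across RORgt-KO, then RORgt-Tbet-KO, then RORgt-RORa-KO, with voom 744, 985 and 1056. With library weights the calls over all peaks were 12468 in RORgt-Tbet-KO, against 8189. Same-numbered libraries did not deviate together (r from -0.121 to 0.143 over 13 pairs), and with the number as a replicate block 855, 1002 and 1098 members were called. A yes or no covariate for any reads in 4 of the 11 Y peaks, added after seeing the data, gave 849, 998 and 1070. Over 151 named peaks, 6383 of the recomputed differences kept their direction and side of the threshold, 417 lost the call, 86 gained it and 0 changed sign. The cause of these moves was not tested. The rule had set every knockout value above every Control value in these peaks. The lack of sign changes was thus largely fixed beforehand and is no test.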

Other observations

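All 11 Y peaks together held 556 to 1200 reads in the knockout libraries and 525 to 1411 in Control. In 4 of the 11, picked by their position after the data were seen, the reads were 260 and 0 in RORgt-KO cells, 0 and 390 in RORgt-Tbet-KO cells, 187, 0 and 183 in RORgt-RORa-KO cells, and 0, 0 and 222 in Control cells. The opened-alike peaks on X numbered 10 of 940.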
